A study of Mus musculus with 12 samples.

Results

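The genes that write, copy and remove DNA methylation were followed in mouse embryonic stem cells carrying mutant histone H3.1 or hairpins against Suv39h enzymes. They were chosen by symbol as 10 of the 23354 genes present in all 12 libraries: the methyltransferases Dnmt1, Dnmt3a and Dnmt3b, the cofactor Dnmt3l, the hemimethylated-DNA readers Uhrf1 and Uhrf2, the remodeller Hells and the dioxygenases Tet1, Tet2 and Tet3. All 10 passed the filter of at least 1 FPKM (fragments per kilobase of transcript per M fragments, with M for mega) in at least 2 libraries, which left 13109 genes tested. The cells were stable lines made from J1 cells, grown on inactivated fibroblast feeders with serum and leukemia inhibitory factor, and mRNA was captured from total RNA. In the overexpression arm the lines carried histone H3.1 with methionine in place of lysine 9 (H3.1K9M) or of lysine 36 (H3.1K36M), and the control line carried H3.1WT. In the knockdown arm they carried shSuv39h1 or shSuv39h2, hairpins named for a pair of H3K9 methyltransferases, and the control line carried shNC. Each of the 6 groups had 2 libraries, and the labels do not say whether these were separate cultures or clones, so p-values measure only the spread between libraries, which may be technical.

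DNA methylation at CG dinucleotides is laid down by Dnmt3a and Dnmt3b and copied after replication by Dnmt1, which Uhrf1 guides to hemimethylated sites. Tet enzymes oxidise 5-methylcytosine, and the oxidised bases are lost on replication or by base excision repair. Dnmt3a and Dnmt3b carry PWWP domains that bind methylated H3K36, and the Uhrf1 protein binds methylated H3K9, so both targeted residues are read by proteins of this pathway. DNA methylation itself was not measured in the libraries described here.

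Depth, estimated from steps in the low values, lay between 23.14 and 30.45 M fragments per library. All 10 embryonic stem cell markers examined, among them Pou5f1 and Nanog, were at or above 1 FPKM in every library. Of 21 fibroblast feeder markers, 19 or 20 reached 1 FPKM in every library, and Lum alone was listed at 0, in a single shSuv39h1 library. Their summed level was 2520 and 1253 FPKM in H3.1K9M, 1683 and 1651 in H3.1K36M and 806 and 1354 in H3.1WT. It was 1028 and 640.0 FPKM in shSuv39h1, 1351 and 1063 in shSuv39h2 and 921 and 1305 in shNC. In such mixed RNA, fewer cells of a type and less RNA per cell cannot be told apart. Of the 6 groups, H3.1K9M had the least alike libraries, whose log2 values differed with an SD of 0.41 across genes. The targeted gene Suv39h2 fell to 1.61 and 1.76 FPKM in shSuv39h2, against 4.80 and 4.78 in shNC (log2 fold change −1.11, limma adjusted p = 0.000304). In shSuv39h1, Suv39h1 itself had 4.91 and 5.105 FPKM, while shNC had 8.58 and 7.52, and this difference did not pass (log2 fold change −0.59, limma adjusted p = 0.0877). Suv39h1 was also lower in H3.1K36M, at 6.92 and 7.58 FPKM against 10.3 and 12.2 in H3.1WT, and this passed (log2 fold change −0.57, limma adjusted p = 0.0163). In H3.1K9M it was at 11.2 and 11.0 FPKM. The part of Suv39h1 in the differences of H3.1K36M was not tested. The level of the overexpressed histones was not checked here.

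The promoters of the de novo writers are shown because Dnmt3a and Dnmt3l are the members whose differences passed the test, and Dnmt3b because it moved with the arm of the study. RefSeq windows on GRCm38.p6 run from 250 bases before to 50 bases after a transcript start, and capitals mark CG. For Dnmt3a, window 1 is chr12:3806730-3807029 on the plus strand and window 3, which starts inside the gene, is chr12:3891494-3891793 on the plus strand. For Dnmt3b, the window is chr2:153649199-153649498 on the plus strand.
Dnmt3a window 1: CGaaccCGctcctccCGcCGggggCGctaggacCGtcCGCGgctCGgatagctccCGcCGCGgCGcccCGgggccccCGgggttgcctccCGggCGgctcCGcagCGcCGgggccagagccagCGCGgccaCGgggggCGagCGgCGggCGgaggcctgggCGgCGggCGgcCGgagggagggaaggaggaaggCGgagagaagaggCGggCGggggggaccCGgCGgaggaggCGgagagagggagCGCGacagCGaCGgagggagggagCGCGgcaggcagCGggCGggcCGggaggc
Dnmt3a window 3: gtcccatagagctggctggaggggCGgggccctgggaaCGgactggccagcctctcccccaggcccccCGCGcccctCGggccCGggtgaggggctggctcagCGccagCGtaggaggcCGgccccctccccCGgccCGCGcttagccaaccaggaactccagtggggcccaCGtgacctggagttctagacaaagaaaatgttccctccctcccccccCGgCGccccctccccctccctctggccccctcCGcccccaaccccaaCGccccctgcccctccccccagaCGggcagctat
Dnmt3b window: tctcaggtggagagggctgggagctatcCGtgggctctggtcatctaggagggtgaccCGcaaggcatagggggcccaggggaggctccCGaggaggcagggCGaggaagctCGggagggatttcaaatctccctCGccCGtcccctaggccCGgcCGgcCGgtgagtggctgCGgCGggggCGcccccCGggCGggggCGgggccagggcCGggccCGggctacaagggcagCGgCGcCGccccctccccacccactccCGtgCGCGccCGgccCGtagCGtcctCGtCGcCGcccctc
The outer Dnmt3a window holds 46 CG dinucleotides, as many as or more than which occur in 1.65% of all 32841 promoter windows. The inner Dnmt3a window holds 18 and the Dnmt3b window 30, against a median of 7 over all windows.

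For Dnmt3l, window 1 is chr10:78042037-78042336 and window 2 is chr10:78049592-78049891, both on the plus strand.
Dnmt3l window 1: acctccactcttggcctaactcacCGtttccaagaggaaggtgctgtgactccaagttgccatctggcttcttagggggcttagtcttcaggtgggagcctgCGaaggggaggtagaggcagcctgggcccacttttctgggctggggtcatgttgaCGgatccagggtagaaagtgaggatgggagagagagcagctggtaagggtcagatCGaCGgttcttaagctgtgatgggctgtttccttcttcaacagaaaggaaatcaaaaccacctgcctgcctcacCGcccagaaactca
Dnmt3l window 2: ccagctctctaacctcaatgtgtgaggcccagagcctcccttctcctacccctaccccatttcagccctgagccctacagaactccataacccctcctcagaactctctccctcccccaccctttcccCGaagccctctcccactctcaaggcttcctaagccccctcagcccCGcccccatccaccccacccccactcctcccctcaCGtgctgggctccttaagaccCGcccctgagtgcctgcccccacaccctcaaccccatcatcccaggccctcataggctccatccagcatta
These windows hold 6 and 4 CG dinucleotides, and the remaining Dnmt3l window holds 3, so all of them lie below the median of all windows. Of the 17 windows of the 10 members, 13 lie above it. The exceptions are those of Dnmt3l and 1 of the Dnmt1 windows, with 2. At the other end, the Tet2 window holds 57, which 0.152% of all windows match or exceed.

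**Figure D1:**
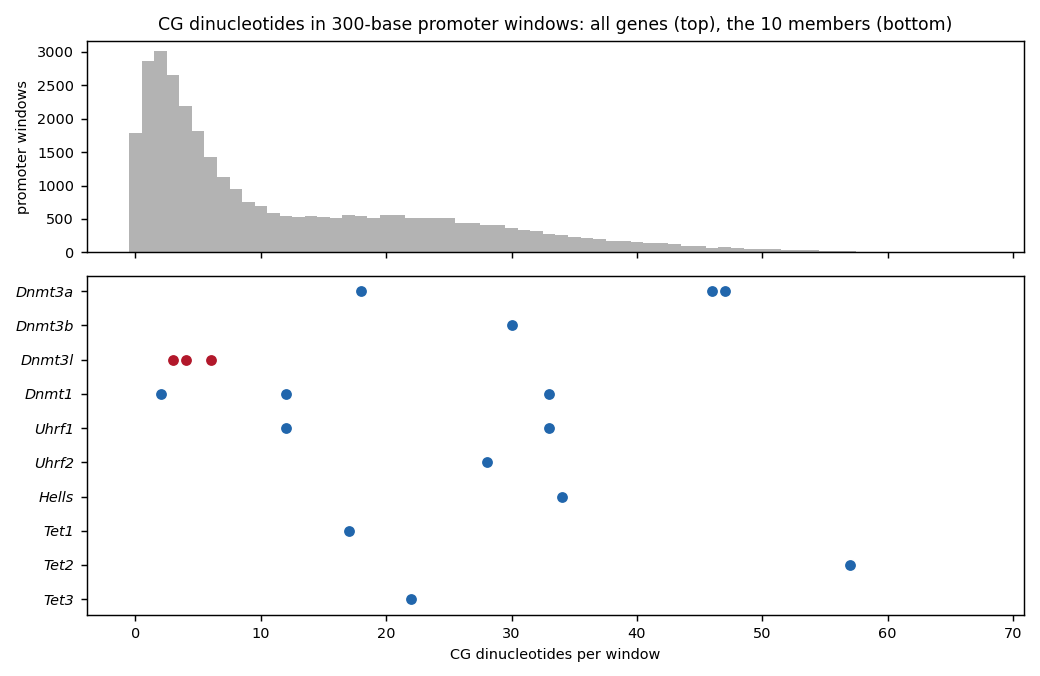
CG dinucleotides per 300-base promoter window (horizontal axis) for all 32841 RefSeq windows (upper panel, number of windows) and for the 17 windows of the 10 members (lower panel, 1 point per window). The 3 Dnmt3l windows, in red, hold 3 to 6 CG and sit with the bulk of all windows, while the Tet2 window sits at 57.

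In FPKM, which is per length and so allows genes to be compared, Dnmt3l was the most abundant of the 10 in every library, with a mean of 189.5 over the 12. Uhrf1 came next at 99.2, above Hells at 66.9 in every library. Hells and Dnmt1, at 59.8, changed places in 1 library, and Dnmt3b at 40.4 stood above Tet1 at 37.65 in 9 of the 12. Below them came Dnmt3a at 22.9, Uhrf2 at 19.5 and Tet2 at 16.5, in an order that broke in 1 library between Dnmt3a and Uhrf2 and in 2 between Uhrf2 and Tet2. Tet3, at 2.16, was the lowest in every library.

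**Figure D2:**
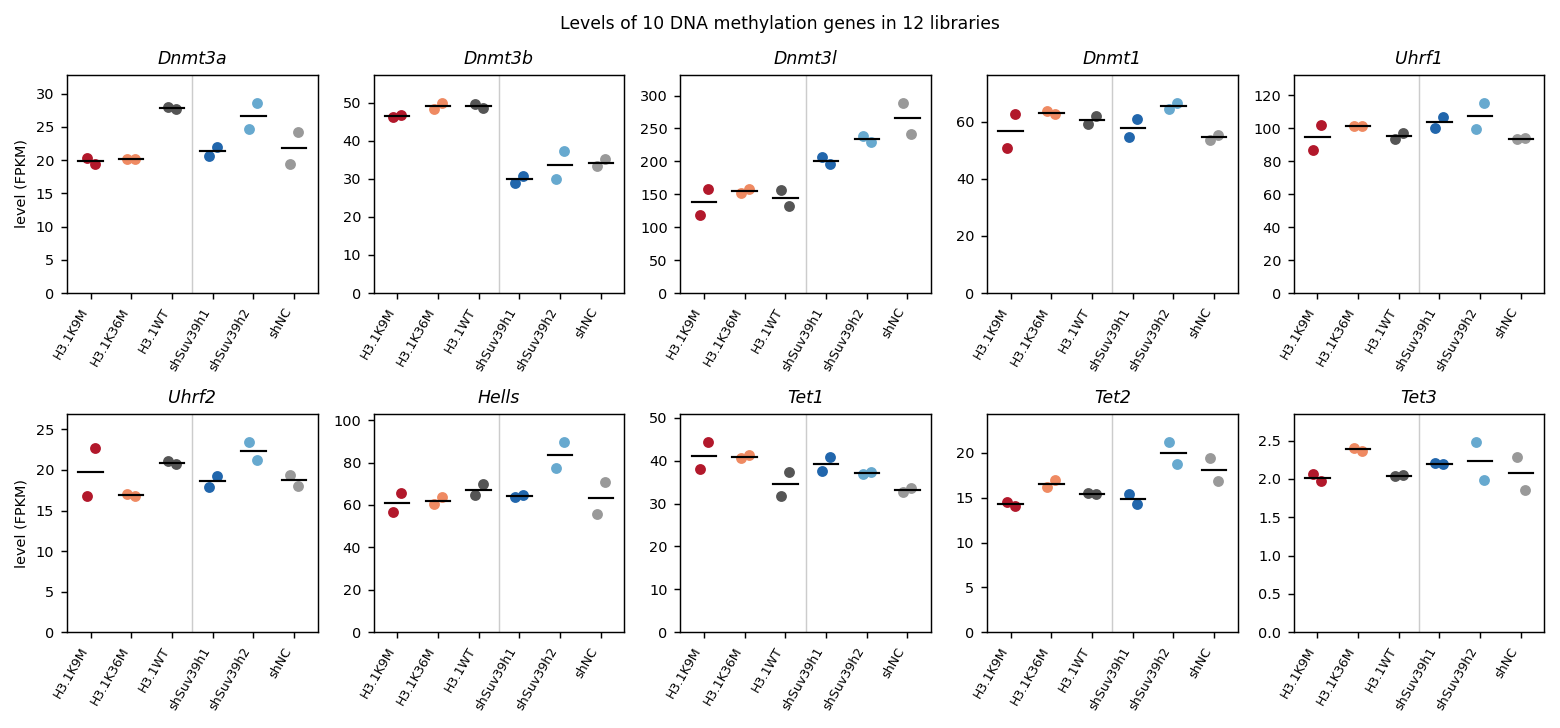
Level of each of the 10 genes (FPKM, vertical axes from 0) in the 2 libraries of each group (points) with the group mean (black lines). Dnmt3a is at 19.4 to 20.3 FPKM in the mutant-histone libraries against 27.7 and 27.9 in H3.1WT, and Dnmt3b and Dnmt3l separate the overexpression lines from the knockdown lines.

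Few of these genes passed the test in any comparison. By limma on log2(FPKM + 1), with Benjamini-Hochberg adjustment over 13109 genes and a threshold of 0.05, Dnmt3a fell in H3.1K36M against H3.1WT and Dnmt3l was lower in H3.1WT than in shNC. The other differences did not pass. In H3.1K9M, 0 of 10 passed and 2 had an unadjusted p under 0.05, where 0.313% of all tested genes passed and 11.2% had such a p. In H3.1K36M, 1 of 10 passed and 3 had an unadjusted p under 0.05, beside 4.84% and 20.8% of all genes. The same counts were 0 and 3 in shSuv39h1, beside 0.145% and 10.6%, and 0 and 3 in shSuv39h2, beside 10.0% and 25.8%. H3.1WT against shNC gave 1 and 4, beside 0.336% and 11.4%. H3.1K36M against H3.1K9M gave 0 and 0, beside 8.24% and 23.2%. The median log2 fold change of the members was −0.08 in H3.1K9M, 0.07 in H3.1K36M, 0.01 in shSuv39h1 and 0.18 in shSuv39h2, beside medians of all genes of −0.01, 0.03, 0.04 and 0.04.

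**Figure D3:**
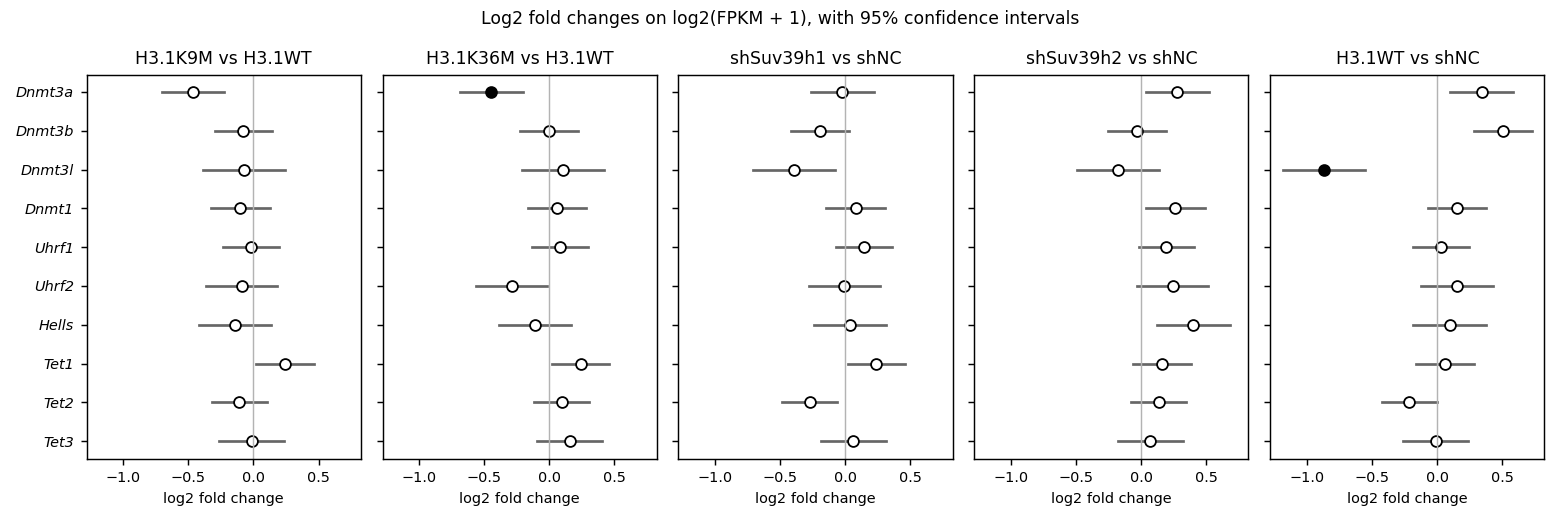
Log2 fold change on log2(FPKM + 1) of each gene in 5 comparisons, with 95% confidence intervals from limma. Filled points passed an adjusted p of 0.05, which are Dnmt3a in H3.1K36M against H3.1WT and Dnmt3l in H3.1WT against shNC.

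The comparison of H3.1K36M with H3.1WT asked which transcripts differed when methylation of H3K36 was targeted. Dnmt3a (chromosome 12, 3806007 to 3914443, plus strand), the de novo methyltransferase with roles in imprinting and later development, was at 20.1 and 20.2 FPKM in H3.1K36M, against 27.9 and 27.7 FPKM in H3.1WT. In H3.1K9M it was at 20.3 and 19.4 FPKM. All 4 mutant-histone libraries lay below both H3.1WT libraries, as in 7.84% of all tested genes. Over both directions such a gap was found for 15.8% of genes. Dnmt3a averaged 20.15 ± 0.0791 FPKM in H3.1K36M and 27.8 ± 0.2 in H3.1WT (SD, n = 2 each), 72.5% of the control level. This log2 fold change of −0.45 (SE 0.108, 95% confidence interval −0.69 to −0.20) passed narrowly (limma adjusted p = 0.0473). With any of the 4 libraries of these groups left out, the adjusted p was 0.159 to 0.281 while the fold change stayed between −0.45 and −0.44, and without any shSuv39h1 or shSuv39h2 library it was 0.0562 to 0.0827. The call was also lost without a filter (adjusted p = 0.0598), with a filter of 5 FPKM (0.0536), in a fit on the overexpression arm alone (0.0542) and with the feeder marker level as a covariate (log2 fold change −0.49, adjusted p = 0.0759).

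The other mutant, H3.1K9M, was set against H3.1WT to ask the same of H3K9 methylation, and there the log2 fold change of Dnmt3a was −0.46 (95% confidence interval −0.71 to −0.22). It did not pass (unadjusted p = 0.00168, limma adjusted p = 0.18). The direct difference between H3.1K36M and H3.1K9M was 0.02, with an interval of −0.22 to 0.26. The H3.1K9M libraries, with feeder marker sums of 2520 and 1253 FPKM, had Dnmt3a at 20.3 and 19.4 FPKM. Those of H3.1WT had sums of 806 and 1354 FPKM. With the feeder marker level as a covariate, the log2 fold change in H3.1K9M was −0.50 (limma adjusted p = 0.183). The part of feeder RNA in the Dnmt3a difference was not tested beyond that covariate.

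The knockdown lines gave Dnmt3a levels of 20.65 and 22.0 FPKM in shSuv39h1, 24.6 and 28.6 in shSuv39h2 and 19.5 and 24.2 in shNC. Both shSuv39h1 libraries lay between the shNC libraries. Both shSuv39h2 libraries lay above both shNC libraries, with a difference of 0.28 on the log2 scale (limma adjusted p = 0.139). Without shNC replicate 2, this difference became 0.43 and passed, at an adjusted p of 0.0351, while without shNC replicate 1 it was 0.13 (0.559) and without shSuv39h2 replicate 2 it was 0.17 (0.539). H3.1WT and shNC differed by 0.34 (limma adjusted p = 0.28). The files give a single value per gene, so the long Dnmt3a isoform and the short isoform that embryonic stem cells mainly make, from an internal promoter, were not told apart.

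Dnmt3b (chromosome 2, 153649450 to 153687730, plus strand), the de novo methyltransferase prominent in the early embryo and at centromeric repeats, showed another pattern, with little difference within an arm and a gap between the arms. Its level was 46.3 and 46.75 FPKM in H3.1K9M, 48.25 and 49.95 in H3.1K36M and 49.7 and 48.5 in H3.1WT. In the knockdown arm it was 29.0 and 30.7 FPKM in shSuv39h1, 29.9 and 37.4 in shSuv39h2 and 33.3 and 35.3 in shNC. No knockdown library reached the lowest overexpression library. Against its own control, the log2 fold change was −0.08 in H3.1K9M, 0.00 in H3.1K36M (interval −0.22 to 0.22), −0.19 in shSuv39h1 and −0.04 in shSuv39h2, and none passed (limma adjusted p from 0.542 to 0.997).

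Between the control lines, Dnmt3b averaged 49.1 ± 0.867 FPKM in H3.1WT and 34.3 ± 1.46 in shNC (SD, n = 2 each), a log2 fold change of 0.51 (SE 0.099) that did not pass (unadjusted p = 0.000507, limma adjusted p = 0.09). It passed with the feeder covariate (adjusted p = 0.0424) and without either shSuv39h2 library (0.0405 and 0.0409). The control lines differ in transgene and in arm, and the labels name more than 1 library kit without saying which library used which, so line, arm and library preparation cannot be told apart.

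Dnmt3l (chromosome 10, 78041947 to 78063622, plus strand) encodes a catalytically inactive partner that stimulates Dnmt3a and Dnmt3b and binds histone H3 tails unmethylated at lysine 4. It was at 118 and 159 FPKM in H3.1K9M, 152 and 157.5 in H3.1K36M and 157 and 132 in H3.1WT. It was at 206 and 195 FPKM in shSuv39h1, 238 and 229 in shSuv39h2 and 289 and 242 in shNC. Here every overexpression library lay below every knockdown library, the reverse of Dnmt3b. Dnmt3b and Dnmt3l were the 2 of 10 members whose 6 overexpression libraries did not overlap the 6 knockdown libraries, beside 183 of all tested genes, or 1.40% (0.603% higher and 0.793% lower in the overexpression lines). Set against the sum of its catalytic partners, the ratio of Dnmt3l to Dnmt3a plus Dnmt3b in FPKM was 1.74 to 2.40 in overexpression libraries and 3.47 to 5.47 in knockdown libraries.

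Dnmt3l averaged 145 ± 17.15 FPKM in H3.1WT and 265 ± 33.0 in shNC (SD, n = 2 each), 54.5% of the shNC level. The difference of −0.87 on the log2 scale (SE 0.141, 95% confidence interval −1.19 to −0.56) passed (limma adjusted p = 0.0428). Leaving out 1 library at a time gave differences of −0.998 to −0.744 and adjusted p-values of 0.0134 to 0.393. The call was lost without either H3.1WT library (0.119 and 0.393) or without shNC replicate 1 (0.258). It was also lost without either library of H3.1K36M (0.11), shSuv39h1 or shSuv39h2 (0.0836 to 0.0945) and with no filter on low values (0.0819).

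Within the arms the Dnmt3l differences did not pass. In shSuv39h1, whose comparison with shNC asked what followed knockdown of Suv39h1, Dnmt3l was below both shNC libraries at 75.7% of their mean (log2 fold change −0.39, unadjusted p = 0.0195, limma adjusted p = 0.365). In shSuv39h2 the difference was −0.18, in H3.1K9M −0.07 and in H3.1K36M 0.10. The H3.1K9M libraries spanned the whole range of the overexpression arm.

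Aire, a transcriptional regulator best known from thymic epithelium, lies beside Dnmt3l on the opposite strand (chromosome 10, 78030022 to 78043610, minus strand) and overlaps its first 1664 bases. Dnmt3l window 1, printed above, lies inside that overlap. The annotated exons share 67 bases, of 2988 exon bases of Dnmt3l, and the use of strand in the counting was not given in the sources used here, so reads there may be split between the genes. Aire was at 13.5 and 13.7 FPKM in H3.1K9M, 18.6 and 16.7 in H3.1K36M and 17.4 and 14.3 in H3.1WT. It was at 25.1 and 24.3 FPKM in shSuv39h1, 24.7 and 23.1 in shSuv39h2 and 33.5 and 24.2 in shNC. As with Dnmt3l, no overexpression library reached the lowest knockdown library. The difference of −0.81 between H3.1WT and shNC did not pass (limma adjusted p = 0.0603).

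**Figure D4:**
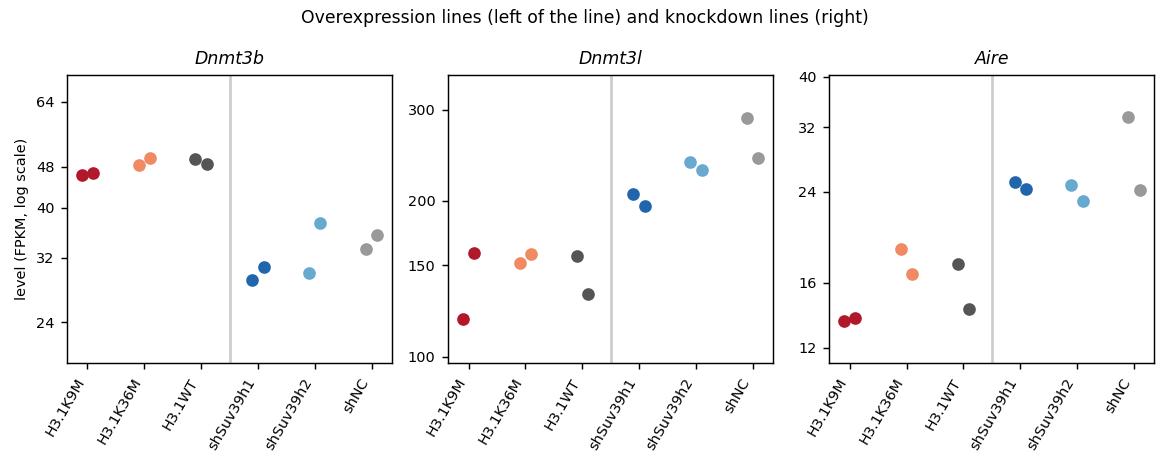
Level of Dnmt3b, Dnmt3l and Aire (FPKM, log-scaled vertical axes) in each of the 12 libraries, with the overexpression lines left of the vertical line. Dnmt3b lies at 46.3 to 49.95 FPKM on the left and 29.0 to 37.4 on the right, while Dnmt3l and its overlapping neighbour Aire are lower on the left.

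By the rule of naming the 3 genes whose levels over the 12 libraries were most like those of a called member, Dnmt3l was followed by Tbrg1 (Pearson r 0.93), Aire (0.93) and Serac1 (0.93). For Dnmt3l the arms form separate clusters, so the values within an arm are the ones to read. These were 0.58, 0.58 and 0.86 over the 6 overexpression libraries and 0.73, 0.74 and 0.80 over the 6 knockdown libraries. For Dnmt3a the genes were Sf1 (0.89), Dhx38 (0.87) and Yeats4 (0.86). Their values within the overexpression arm were 0.99, 0.83 and 0.87, and within the knockdown arm 0.87, 0.92 and 0.86. The arms overlap for Dnmt3a. Within the overexpression arm its H3.1WT libraries lay apart from the mutant-histone libraries, so r there also carries a group difference. Without the 2 libraries farthest from the median, r over the other 10 was 0.91, 0.88 and 0.88 for Dnmt3l and 0.83, 0.82 and 0.77 for Dnmt3a. These are descriptions over libraries that share groups, chosen as the highest of 12380 genes.

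Dnmt1, Uhrf1 and Hells, which serve maintenance methylation, are set together here by a shared feature of their promoters that the choice of members did not use. A search on both strands for the E2F-type strings TTTCGCGC, TTTGGCGC, TTTCCCGC and TTTGCCGC found a match in 3 of the 17 windows, 1 each of Dnmt1, Uhrf1 and Hells, and in 2.27% of all windows. A match is a description and not a binding site. Excerpts around the first match follow, with the string in capitals, from chr9:20952805-20952872 (minus strand) for Dnmt1, chr17:56304098-56304165 (plus strand) for Uhrf1 and chr19:38930898-38930965 (plus strand) for Hells.
Dnmt1 excerpt: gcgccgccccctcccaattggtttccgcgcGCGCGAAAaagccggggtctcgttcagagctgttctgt
Uhrf1 excerpt: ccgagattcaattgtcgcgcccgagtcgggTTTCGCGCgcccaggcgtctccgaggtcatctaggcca
Hells excerpt: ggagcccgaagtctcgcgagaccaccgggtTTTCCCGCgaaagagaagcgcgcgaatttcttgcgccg
E2F factors are known to drive genes of the G1 to S transition. The string in capitals for Dnmt1 is read on the opposite strand to that in Uhrf1. The same Dnmt1 window also holds TTTGGCGC, in the orientation of the Uhrf1 string.

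Dnmt1 (chromosome 9, 20907209 to 20959888, minus strand), the maintenance methyltransferase, was at 64.4 and 66.6 FPKM in shSuv39h2, against 53.6 and 55.5 in shNC. Both shSuv39h2 libraries lay above both shNC libraries. The log2 fold change of 0.26 did not pass (limma adjusted p = 0.139), although it did without either H3.1K9M library (0.0398 and 0.0401). In shSuv39h1 Dnmt1 was at 54.6 and 61.0 FPKM. In the overexpression arm it was at 50.8 and 62.8 FPKM in H3.1K9M and 63.9 and 62.65 in H3.1K36M, against 59.3 and 62.2 in H3.1WT. The H3.1K9M libraries lay on either side of H3.1WT and those of H3.1K36M just above it.

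Uhrf1 (chromosome 17, 56303321 to 56323486, plus strand), which reads hemimethylated DNA and methylated H3K9 and recruits Dnmt1, stayed within 86.8 to 115 FPKM over all 12 libraries. Its SD on the log2 scale over the libraries was 0.10, lower than in all but 12.2% of tested genes. Its level was 99.6 and 115 FPKM in shSuv39h2 and 99.96 and 107 in shSuv39h1, against 93.1 and 94.0 in shNC. Every Suv39h knockdown library lay above the shNC libraries. For each line alone, that was so in 29.5% of all tested genes for shSuv39h2 and 26.8% for shSuv39h1. Neither Uhrf1 difference passed, at log2 fold changes of 0.19 and 0.14 (limma adjusted p = 0.239 and 0.663). In H3.1K9M it was at 86.8 and 102 FPKM while H3.1K36M averaged 101.1 ± 0.14 FPKM (SD, n = 2), against 93.4 and 97.3 in H3.1WT.

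Uhrf2 (chromosome 19, 30030513 to 30093722, plus strand), a relative of Uhrf1 that also reads 5-hydroxymethylcytosine, was at 17.0 and 16.75 FPKM in H3.1K36M, against 21.0 and 20.7 in H3.1WT. The H3.1K36M libraries agreed closely and lay below both control libraries. The log2 fold change of −0.29 (95% confidence interval −0.56 to −0.02) did not pass (limma adjusted p = 0.216). It passed without either H3.1K9M library (0.0483 and 0.0488) and shrank to −0.11 with the feeder covariate. In H3.1K9M Uhrf2 was at 16.8 and 22.65 FPKM, on either side of H3.1WT. The knockdown lines stood at 17.9 and 19.3 FPKM in shSuv39h1 and 23.4 and 21.2 in shSuv39h2, against 19.4 and 18.0 in shNC, and no difference passed.

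Hells (chromosome 19, 38930915 to 38971051, plus strand), also called Lsh, a remodeller needed for methylation of repeats, had the largest positive fold change among the members in shSuv39h2. That comparison asked what followed knockdown of Suv39h2. Hells was at 77.4 and 89.5 FPKM in shSuv39h2, against 55.6 and 71.0 in shNC, and the shSuv39h2 libraries were the highest of all 12. The mean was 131.9% of control, with a log2 fold change of 0.40 (SE 0.124, 95% confidence interval 0.12 to 0.68) that did not pass (unadjusted p = 0.00937, limma adjusted p = 0.0736). It passed without shNC replicate 2 (0.57, adjusted p = 0.0211) and without either H3.1K9M library (0.0489 and 0.049). Without shNC replicate 1 it was 0.23 (0.343) and without shSuv39h2 replicate 2 it was 0.30 (0.349). In the other groups Hells was at 63.9 and 64.85 FPKM in shSuv39h1, 56.5 and 65.4 in H3.1K9M, 60.4 and 63.8 in H3.1K36M and 64.6 and 69.75 in H3.1WT, which differed less than the shNC libraries did from each other.

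Levels of 17 genes of S phase and cycling are given beside these maintenance genes, as they share replication as their setting. In shSuv39h2, 1 of 17 rose, Rrm2, the small ribonucleotide reductase subunit, at 94.6 and 104.3 FPKM against 66.4 and 77.95 in shNC (log2 fold change 0.46, limma adjusted p = 0.0208), and 6 had an unadjusted p under 0.05, beside 10.0% and 25.8% of all tested genes. The median over the 17 was 0.18, as it was over the 10 members, against 0.04 over all genes. Their summed level was 1548 and 1735 FPKM in shSuv39h2 and 1425 and 1559 in shNC. Its part in the levels of Dnmt1, Uhrf1 and Hells was not tested.

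No Tet gene passed in any comparison by limma. Tet1 (chromosome 10, 62804570 to 62908996, minus strand), the main Tet enzyme of embryonic stem cells, was at 38.0 and 44.3 FPKM in H3.1K9M and 40.5 and 41.3 in H3.1K36M, against 31.8 and 37.3 in H3.1WT. It was at 37.6 and 40.8 FPKM in shSuv39h1 and 36.8 and 37.3 in shSuv39h2, against 32.6 and 33.5 in shNC. The 4 mutant-histone libraries lay above both H3.1WT libraries, as in 7.93% of all tested genes. The libraries of shSuv39h1 and those of shSuv39h2 lay above both shNC libraries, as in 26.8% and 29.5% of genes for each line alone. The share for both knockdown lines together was not counted. The log2 fold changes were 0.24 in H3.1K9M, 0.24 in H3.1K36M, 0.24 in shSuv39h1 and 0.16 in shSuv39h2, and none passed (limma adjusted p from 0.205 to 0.438). Comparisons within an arm share their control libraries, so they are not independent of each other. Without H3.1WT replicate 1 the values in H3.1K9M and H3.1K36M were each 0.13.

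Tet2 (chromosome 3, 133463679 to 133545139, minus strand), which lacks a CXXC domain of its own, was at 14.5 and 14.0 FPKM in H3.1K9M and 16.15 and 17.0 in H3.1K36M, against 15.5 and 15.4 in H3.1WT. It was at 15.35 and 14.3 FPKM in shSuv39h1 and 21.2 and 18.8 in shSuv39h2, against 19.45 and 16.8 in shNC. The shSuv39h1 libraries lay below both shNC libraries, with a log2 fold change of −0.27 (95% confidence interval −0.48 to −0.06) that did not pass (limma adjusted p = 0.344). Leaving out 1 library at a time gave −0.37 to −0.17. Tet1 and Tet2 thus differed from shNC in opposite directions in this line, neither past the threshold. H3.1WT lay below shNC by 0.22 on the log2 scale (limma adjusted p = 0.429).

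Tet3 (chromosome 6, 83362373 to 83459084, minus strand), the Tet enzyme of the oocyte and zygote, stayed between 1.86 and 2.48 FPKM. Both H3.1K36M libraries, at 2.41 and 2.37 FPKM, lay above both H3.1WT libraries at 2.04 and 2.05, a difference of 0.16 that did not pass (limma adjusted p = 0.467). Of the summed FPKM of the 3 Tet genes, Tet1 made up 60.01% to 73.45%, Tet2 23.3% to 35.8% and Tet3 3.27% to 4.21% over the 12 libraries. The share of Tet1 was lowest in a shNC library and highest in an H3.1K9M library.

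Counting libraries that did not overlap between a group and its control, 1 member was higher and 3 lower in H3.1K9M. Over all tested genes, 14.6% were higher and 20.6% lower in this way, or 35.2% in all. In H3.1K36M 5 were higher and 3 lower, beside 38.2% and 27.6%, or 65.9% in all. In shSuv39h1 2 were higher and 3 lower, beside 26.8% and 12.7% (39.4%), and in shSuv39h2 6 were higher and 1 lower, beside 29.5% and 21.3% (50.8%). H3.1WT against shNC gave 4 higher and 2 lower, beside 23.1% and 16.3% (39.4%), and H3.1K36M against H3.1K9M gave 3 higher and 0 lower, beside 31.5% and 20.5% (52.0%). With 2 libraries a side such counts are common among all genes.

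Beyond the members, lists of genes of the same pathway were described by counts. Only a part of the passing differences in these and the marker lists was examined with libraries left out. Tuba3a and Tuba3b in shSuv39h2 and T in H3.1K36M, for example, passed but were not among those examined. Of 39 passing differences examined in these and the marker lists, 9 held in each of the 12 fits that left out 1 library. Those are Dazl and Tex101 in shSuv39h2, Gadd45a in shSuv39h2, Tuba3a, Otx2 and Lef1 in H3.1K36M, and Prdm14, Gadd45a and Dazl in H3.1K36M against H3.1K9M. The other 30 were lost in at least 1 of these fits. Among 19 tested regulators of the writers and erasers, 2 rose in H3.1K36M and none fell, while 4 had an unadjusted p under 0.05, beside 4.84% and 20.8% of all tested genes. The counts of the other lists are likewise to be read beside the shares of all genes in the same comparison given earlier. Prdm14, a germline and pluripotency factor known to repress Dnmt3 genes in mouse cells, was at 8.51 and 8.34 FPKM in H3.1K36M, against 3.97 and 5.6 in H3.1WT (log2 fold change 0.72, limma adjusted p = 0.0452). Zfp57, which protects methylation at imprinted loci, was at 153.6 and 154.1 FPKM in H3.1K36M, against 122.6 and 120.1 in H3.1WT (0.34, limma adjusted p = 0.0472). Each of these calls was lost in 8 of the 12 fits that left out a library, among them all 4 that left out a library of the compared groups. In H3.1K9M 0 of 19 passed and 3 had an unadjusted p under 0.05, and Prdm14 was at 3.29 and 2.77 FPKM, so that it was higher in H3.1K36M than in H3.1K9M by 1.23 (limma adjusted p = 0.00263).

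In shSuv39h2, Zfp57 rose again, to 178.9 and 178.1 FPKM against 147.0 and 134.1 in shNC (log2 fold change 0.34, limma adjusted p = 0.0282). Ehmt2, the H3K9 methyltransferase also called G9a, rose to 71.6 and 69.5 FPKM in shSuv39h2, against 60.2 and 53.1 in shNC (0.31, limma adjusted p = 0.0381). Neither passed after median-of-ratios or quantile scaling, and with a library left out the calls were lost in 7 of 12 fits for Zfp57 and 9 of 12 for Ehmt2. No regulator passed in shSuv39h1, where 0 of 19 had an unadjusted p under 0.05, or in H3.1WT against shNC, where 4 did. Of 10 readers of methylated DNA, Zbtb33, also called Kaiso, rose in shSuv39h2 to 3.63 and 3.26 FPKM, against 2.08 and 1.92 in shNC (0.57, limma adjusted p = 0.00791). No reader passed in H3.1K9M, H3.1K36M or shSuv39h1 by limma, and 1 had an unadjusted p under 0.05 in each.

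Among 12 genes for the repair of oxidised cytosine, Gadd45a, a stress-induced gene linked to active demethylation, rose in 2 lines. It was at 27.1 and 28.0 FPKM in H3.1K9M, against 17.95 and 16.5 in H3.1WT (log2 fold change 0.65, limma adjusted p = 0.0365), and at 28.4 and 29.1 FPKM in shSuv39h2, against 19.0 and 15.1 in shNC (0.73, limma adjusted p = 0.00363). In H3.1K36M it was at 14.96 and 14.5 FPKM, lower than in H3.1K9M by 0.86 on the log2 scale (limma adjusted p = 0.0012). In H3.1K9M the Gadd45a call was lost in 9 of the 12 fits that left out a library (highest adjusted p 0.264). Neil1, a DNA glycosylase, and Xrcc1, a scaffold of single-strand break repair, also rose in shSuv39h2, by 0.47 and 0.42 (limma adjusted p = 0.0225 and 0.0255). Of the 12 genes, 4 had an unadjusted p under 0.05 in shSuv39h2, and in shSuv39h1 none did. With a library left out, the Neil1 call was lost in 4 of 12 fits and the Xrcc1 call in 5.

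Genes that supply methyl groups through folate and S-adenosylmethionine were followed as a list of 17. In shSuv39h2, Mthfd1l and Shmt2, both mitochondrial folate enzymes, rose by 0.49 and 0.43 (limma adjusted p = 0.0278 and 0.0385). Mat2b, the regulatory subunit of methionine adenosyltransferase, was at 35.2 and 37.2 FPKM in shSuv39h2, against 45.4 and 44.7 in shNC (−0.31, limma adjusted p = 0.0279). With a library left out, the calls of Mthfd1l, Shmt2 and Mat2b were lost in 5, 10 and 9 of 12 fits. In H3.1K9M, H3.1K36M and shSuv39h1 0 of 17 passed by limma, and 0, 4 and 4 had an unadjusted p under 0.05.

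Of 11 genes that supply 2-oxoglutarate and ascorbate, the cosubstrate and cofactor of Tet enzymes, Idh1 rose in H3.1K36M. It was at 43.6 and 45.6 FPKM in H3.1K36M, against 33.2 and 33.6 in H3.1WT (log2 fold change 0.41, limma adjusted p = 0.0369), and the call was lost in 8 of the 12 fits that left out a library (highest adjusted p 0.283). In shSuv39h2, Psat1, an aminotransferase of serine synthesis that releases 2-oxoglutarate, was at 217.0 and 201.5 FPKM, against 114.9 and 126.2 in shNC (0.79, limma adjusted p = 0.0373). Idh3b rose by 0.27 (limma adjusted p = 0.0279) and the ascorbate transporter gene Slc23a1 fell by 0.38 (limma adjusted p = 0.0431), at under 1 FPKM in both groups. Slc23a1 passed the filter only through H3.1K9M (1.74 and 1.73 FPKM) and 1 shSuv39h1 library (1.01 FPKM). Its call and that of Psat1 were each lost in 10 of the 12 fits that left out a library. Little can be read from either, and the Idh3b call was lost in 7.

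**Figure D5:**
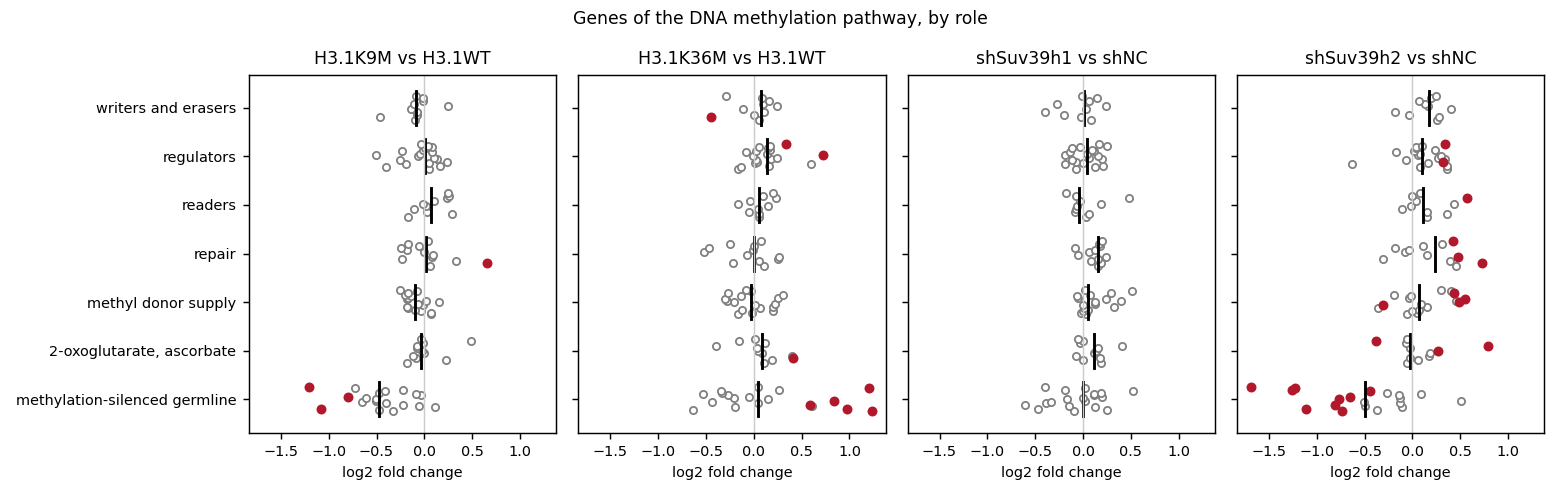
Log2 fold change of each tested gene of the 10 members and 6 pathway lists (points) in 4 comparisons, with the list median as a vertical bar and genes that passed an adjusted p of 0.05 in red. The germline list has medians of −0.48 in H3.1K9M and −0.49 in shSuv39h2, and 5 of its genes are red above 0 in H3.1K36M.

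A list of 19 germline genes, drawn up as known targets of silencing by promoter methylation, was also followed. Most were not silent in these cells. In the H3.1WT libraries 17 and 16 of the 19 were at or above 1 FPKM, among them Rpl10l at 57.5 and 50.5 FPKM. Whether they lie downstream of the writers here was not tested. In H3.1K9M, 3 of 19 fell and none rose, where 0.313% of all tested genes passed. Of the 41 genes that passed there, 38 were lower, so the direction is that of most calls. The median log2 fold change of the list was −0.48 against −0.01 over all genes. In H3.1K36M, 5 rose and none fell, where 4.84% of all tested genes passed. Of the 634 genes that passed in H3.1K36M, 406 were higher. The list median there was 0.04 against 0.03. In shSuv39h2, 9 fell and none rose, with a median of −0.49 against 0.04, while in shSuv39h1 0 of 19 passed by limma, 5 had an unadjusted p under 0.05 and the median was 0.00. H3.1WT against shNC gave 1 that fell, Hormad1.

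Dazl, a germ cell RNA-binding protein, moved in both directions. It was at 1.38 and 1.63 FPKM in H3.1K9M and 8.94 and 9.89 in H3.1K36M, against 3.85 and 4.77 in H3.1WT, with log2 fold changes of −1.08 and 0.97 (limma adjusted p = 0.0227 and 0.00599). In shSuv39h2 it was at 1.705 and 1.82 FPKM, against 4.23 and 5.86 in shNC (−1.12, limma adjusted p = 0.00256). The libraries of H3.1K9M and shSuv39h2 lay below, and those of H3.1K36M above, both of their control libraries. In H3.1K9M the call was lost in 7 of the 12 fits that left out a library (highest adjusted p 0.154). In H3.1K36M it was lost without H3.1WT replicate 1 (0.0656) or either H3.1K36M library (0.0626 and 0.0944).

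Syce1, a synaptonemal complex gene, fell in H3.1K9M to 9.23 and 11.9 FPKM, against 17.95 and 20.1 in H3.1WT (log2 fold change −0.80, limma adjusted p = 0.0313), a call lost in 9 of the 12 fits that left out a library. Asz1, of the piRNA pathway, rose in H3.1K36M to 2.24 and 2.80 FPKM, against 0.605 and 0.388 in H3.1WT (1.23, limma adjusted p = 0.00347). Asz1 passed the filter of 1 FPKM through these H3.1K36M libraries, and the only other library at that level was of shNC (1.001 FPKM). Tex101, a germ cell surface protein gene, fell in shSuv39h2 to 1.42 and 0.94 FPKM, against 4.59 and 3.825 in shNC (−1.26, limma adjusted p = 0.00132). Of the testis tubulin genes, Tuba3b also fell in H3.1K9M, Tuba3a rose in H3.1K36M and both fell in shSuv39h2, but they are near-identical copies whose reads cannot be assigned with certainty.

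Markers of feeder cells and of the state of the stem cells also differed between these lines. Of 20 tested feeder markers, 3 rose in H3.1K36M (Postn, Col6a2 and Col3a1) and 9 had an unadjusted p under 0.05, with a median log2 fold change of 0.75. In H3.1K9M 0 of 20 passed by limma and 8 had an unadjusted p under 0.05, with a median of 0.74, while the median of the 10 embryonic stem cell markers was −0.19. The part of feeder RNA in the germline differences was not tested. Of 7 tested markers of primed pluripotency, a state in which Dnmt3a and Dnmt3b are known to be higher than in the naive state, 6 fell in H3.1K36M, with a median of −0.98. Otx2, a transcription factor of that state, was at 1.68 and 1.97 FPKM in H3.1K36M and 6.43 and 9.49 in H3.1K9M, against 16.5 and 16.3 in H3.1WT. Its log2 fold change was −2.62 in H3.1K36M (limma adjusted p = 4.69e-05) and −0.98 in H3.1K9M (limma adjusted p = 0.0465), where the call was lost in 11 of 12 fits that left out a library (highest adjusted p 0.409). The summed level of 8 such markers was 27.7 and 28.6 FPKM in H3.1K36M and 62.8 and 69.0 in H3.1K9M, against 82.4 and 80.5 in H3.1WT, none of them at 0. Of the 10 embryonic stem cell markers, 3 rose in H3.1K36M, none fell and 6 had an unadjusted p under 0.05. The shares of all tested genes were 4.84% and 20.8%. Their median was 0.21, against 0.03 over all genes. Nanog, a naive pluripotency factor, rose to 378 and 373 FPKM in H3.1K36M, against 184 and 199 in H3.1WT (0.97, limma adjusted p = 0.0129). That call was lost without any 1 of these 4 libraries. Pou5f1 was lower in H3.1K36M, at 641 and 627 FPKM against 807 and 755, and did not pass.

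Between the control lines, 3 of the 7 primed markers passed as higher in H3.1WT than in shNC and none as lower. Of the 7, 5 had an unadjusted p under 0.05, and the shares of all tested genes were 0.336% and 11.4%. The median of the primed markers was 0.62, against 0.02 over all genes. T had the smallest p of the 3. It was at 7.44 and 11.3 FPKM in H3.1WT, against 0.37 and 1.01 in shNC (log2 fold change 2.62, limma adjusted p = 0.00524). Lef1, a Wnt pathway transcription factor, was at 10.7 and 12.1 FPKM in H3.1WT, against 5.14 and 6.02 in shNC (log2 fold change 0.91, limma adjusted p = 0.0454). The Lef1 call was lost in 9 of the 12 fits that left out a library, and that of Pim2, another of the 3, in 7. In H3.1K36M T was at 0.64 and 0.98 FPKM, Lef1 at 1.765 and 1.81 FPKM and Dnmt3b at 48.25 and 49.95 FPKM. The part of this state in the levels of Dnmt3a, Dnmt3b and Dnmt3l was not tested.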

How the data were processed

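Values are FPKM per gene symbol, deposited by the authors in 1 file per library. The unit is inferred from steps near 0: over 629 single-transcript genes at low level, 76.1% of 2783 values were whole steps within 0.05, where chance gives 10.0%, which also gave the approximate depths. FPKM was not turned into counts. The tools TopHat2 2.0.13 and Cuffdiff 2.2.1 and the build mm10 are listed per the submitters' processing notes. Roles, settings, annotation and any scaling between libraries were not given in the sources used here.

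limma 3.58.1 (R 4.3.3) was run on log2(FPKM + 1) for the 13109 genes reaching 1 FPKM in 2 or more libraries, as 1 fit over 12 libraries with a mean per group, an intensity trend, 6 residual and 3.66 prior degrees of freedom and no replicate block. Fold changes on this scale understate those of low genes. Tests are two-sided, with Benjamini-Hochberg adjustment over all tested genes of a comparison. The steps were tested on simulated data. Gene positions are from GENCODE M21 on GRCm38, and promoter windows and sequences from RefSeq on GRCm38.p6, which matched 10 of 10 members.

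The members and lists were chosen with earlier results of these data known. Genes named are the members, Suv39h1, Suv39h2, up to 4 genes with the smallest p of a list in a comparison described, and the 3 most like each called member by Pearson r. A gene named in 1 comparison is also given in others for comparison. Alternatives were leaving the filter out, raising it to 5 FPKM, a pseudocount of 0.1, median-of-ratios or quantile scaling, a replicate block, fits on 1 arm, a feeder marker covariate and leaving out each library. A result in the methyl donor list is not reported here.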

Additional observations from a re-analysis of the deposited data

How the results depend on the processing

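No member fold change with an unadjusted p under 0.05 changed sign in the alternatives run. Dnmt3a in H3.1K36M against H3.1WT kept a log2 fold change of −0.51 to −0.44 but passed in 4 of 8 alternatives other than leaving out a library and in 4 of 12 that left out a library. Dnmt3l in H3.1WT against shNC passed in 5 of 7 and 3 of 12. Counts of called genes moved more. In H3.1K9M against H3.1WT, 41 became 12 without a filter, 27 with a filter of 5 FPKM and 2 in a fit on 1 arm, and 2 to 696 with a library left out. In H3.1K36M against H3.1WT, 634 became 354 with a filter of 5 FPKM, 191 on 1 arm and 58 to 1189 with a library left out. In H3.1K36M against H3.1K9M, 1080 became 663, 521 and, with the feeder covariate, 1998, and 209 to 1422 with a library left out. In shSuv39h1 against shNC, 19 became 11 at a pseudocount of 0.1, 3 on 1 arm, 47 with the feeder covariate and 0 to 59 with a library left out. In shSuv39h2 against shNC, 1316 became 861 on 1 arm, 2233 with the feeder covariate and 358 to 2000 with a library left out. In H3.1WT against shNC, 44 became 29 with a filter of 5 FPKM, 181 with the feeder covariate and 7 to 158 with a library left out. The causes were not tested, beyond fewer genes or libraries entering some fits. The fit on 1 arm was not run for H3.1WT against shNC, which spans both.

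The share of called genes that were higher was 64.04% in H3.1K36M and 53.7% after quantile scaling. It was 67.6% against 54.9% after median-of-ratios scaling in H3.1K36M against H3.1K9M, 57.9% against 31.25% (42.1% after quantile scaling) in shSuv39h1, and 53.3% against 42.0% in shSuv39h2.

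Over 15 pairs of groups, the correlation of deviations between libraries with the same replicate number lay between −0.384 and 0.517, so the numbers were not taken to pair the libraries. It was 0.383 between H3.1WT and shNC and 0.383 between shSuv39h2 and shNC. With a replicate block, the counts were 39 in H3.1K9M, 595 in H3.1K36M, 1069 in H3.1K36M against H3.1K9M, 10 in shSuv39h1, 1323 in shSuv39h2 and 40 in H3.1WT against shNC. Under the block, Hells passed in shSuv39h2 (adjusted p = 0.0236) and Dnmt3l in H3.1WT against shNC did not (0.069). At 2 libraries a group, differences of the size seen in most members lie within the intervals printed.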
